A study of Mus musculus with 2 samples.

Results

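Amino acid transporter genes were examined in G1E, an immortalised mouse line of red cell precursors. They were taken as every protein-coding gene whose symbol begins with Slc1a, Slc3a, Slc6a, Slc7a, Slc36a, Slc38a or Slc43a and a number, which gave 64 of 21474 protein-coding genes. G1E cells carry a disrupted Gata1, the gene of the DNA-binding factor that drives red cell maturation, and the labels give the line as male, postnatal and of age 0 day. As background, the line was grown out of Gata1-disrupted embryonic stem cells that had been differentiated in culture, so it stands for an arrested precursor and not for a sorted tissue. Polyadenylated RNA had been sequenced in 2 paired-end libraries, called replicate 2 and replicate 1 after their label numbers, which formed 1 group. With no second treatment, genotype or stage to compare, the results are levels, ratios of genes in the same library and the spread between the libraries. The labels number the libraries as biological replicates, but both cite the same cell sample, so this spread may be technical. The total was 80658620 counts in replicate 2 and 61982618 in replicate 1.

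Amino acid transporters are membrane proteins sorted into transport systems by what they carry and by what drives them. Some let a substrate run down its own gradient or exchange 1 amino acid for another, and others couple uptake to sodium or to protons. Light chains of the Slc7 family need a heavy chain of the Slc3 family, joined by a disulfide bond, to reach the cell surface. In red cell precursors, amino acid uptake feeds globin synthesis, and glycine is also the starting material of haem.

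The level of a gene is given as TPM, its abundance scaled for length and for the total of the library, and a gene counted as detected when each library gave it 1 TPM or more. Of the 64 transporter genes, 17 (26.6%, exact 95% interval 16.3 to 39.1%) were detected, against 40.0% of all protein-coding genes. Both libraries had to pass for the higher levels too: 10 members (15.6%) reached 10 TPM in both, against 24.3% of protein-coding genes, and 2 members (3.12%) reached 100 TPM in both, against 5.56%. A further 27 members (42.2%) had 0 counts in both libraries, against 39.4% of protein-coding genes. The detected share was below that of protein-coding genes and the share without counts was close to it. The interval treats genes as independent, which they are not. Over all 64 members the median of log2(TPM + 1) was 0 in replicate 2 and 0.01 in replicate 1, against 0.04 in each library over protein-coding genes. Among detected genes the median was 14.9 TPM in replicate 2 and 13.8 TPM in replicate 1 for members, against 19.0 and 17.0 TPM for protein-coding genes.

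The RNA of the family lay in few members. The 64 members summed to 738 TPM in replicate 2 and 642 TPM in replicate 1, which is 0.0738% and 0.0642% of all TPM. The first 3 members by level, Slc7a8, Slc3a2 and Slc7a5, held 63.4% of that sum in replicate 2 and 60.9% in replicate 1, and the first 5 held 82.1% and 81.6%. The 47 undetected members summed to 1.64 TPM in replicate 2 and 1.93 TPM in replicate 1. In TPM there was a gap at the threshold. The lowest detected member, Slc6a8, was at 2.11 and 1.55 TPM, and the highest undetected one, Slc7a6, at 0.79 and 0.74 TPM. By counts, which are not divided by length, there was no such gap. The detected Slc38a6 had 140 counts in replicate 2 and 92 in replicate 1, fewer than the 199 and 148 of Slc7a6. A low level in these libraries of many cells does not tell fewer cells with the RNA from less RNA in each cell.

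**Figure D1:**
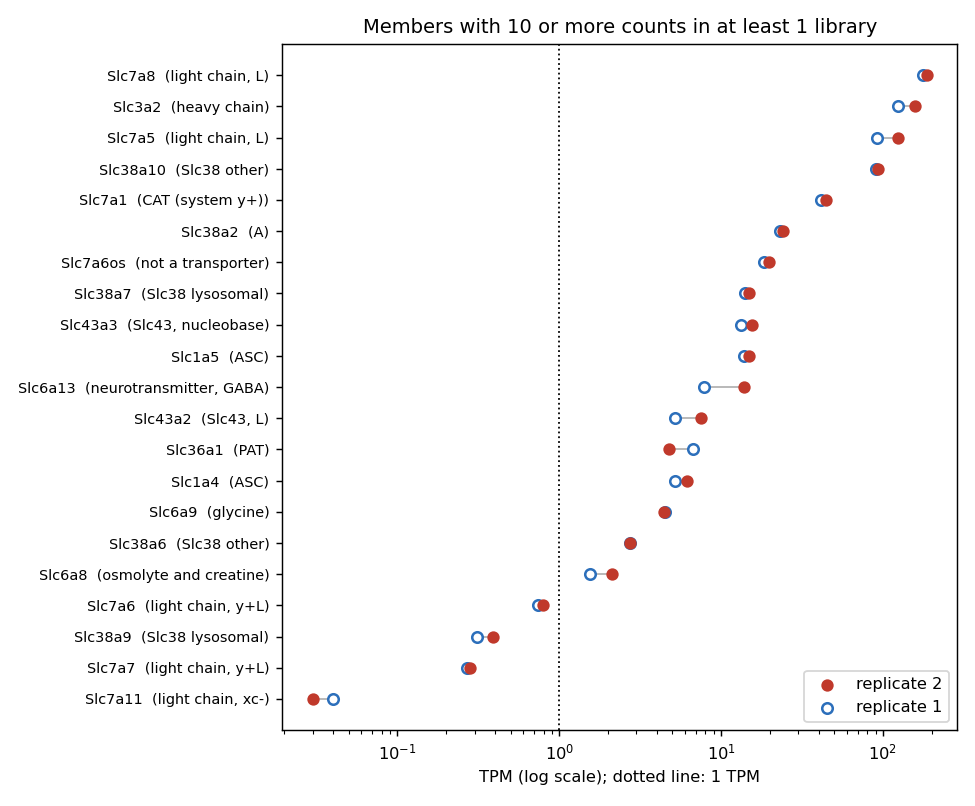
TPM (log axis) of the 21 members that reached 10 counts in either library, ordered by mean level, with the transport system beside each name. Filled points are replicate 2 and open points replicate 1. Slc7a8, Slc3a2 and Slc7a5 lie at the top, 17 members lie right of the dotted line at 1 TPM in both libraries, and among detected members the points of Slc6a13 lie farthest apart.

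The labelled cell type was checked on marker genes. All 7 markers of early red cell precursors were detected, from Kit at 110 and 83.3 TPM to Zfpm1 at 1159 and 1232 TPM in replicate 2 and replicate 1. Of 3 markers of later red cells 1 was detected, Slc4a1 at 2.90 and 2.30 TPM. None of 14 markers of T, B, myeloid, fibroblast, endothelial, neural, kidney and gut cells was detected, and they summed to 1.68 TPM in replicate 2 and 0.97 TPM in replicate 1. Of these 14 genes, 9 had 0 counts in both libraries, among them Cd3e, Col1a2, Pdgfra, Rbfox3 and Umod. The highest of them was Elane, of neutrophil granules, at 1.19 and 0.76 TPM.

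Heavy and light chains came first by level. Slc3a2, the CD98 heavy chain that carries most light chains to the surface (ENSMUSG00000010095.9, minus strand of chromosome 19 from 8706882 to 8723369 in mm10), had 158 TPM in replicate 2 and 124 TPM in replicate 1, a mean of 141 ± 24.0 TPM (SD, n = 2). Slc3a1, the heavy chain of kidney and gut epithelium, had 0 counts in both. With 3 counts taken as the most that a 0 allows in a library, Slc3a2 was at least 8027-fold higher than Slc3a1 in replicate 2 and at least 4985-fold higher in replicate 1. So the data held RNA of 1 of the 2 heavy chains.

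Of the 10 light chain genes, 2 were detected, and both belong to system L, which exchanges large neutral amino acids such as leucine. Slc7a8, which encodes LAT2 (ENSMUSG00000022180.6, minus strand of chromosome 14 from 54722209 to 54781946), was the highest member of all, with 186 TPM in replicate 2 and 176 TPM in replicate 1 (mean 181 ± 7.59 TPM, SD, n = 2, from 51216 and 38160 counts). That level was at percentile 91.6 of detected protein-coding genes. Slc7a5, which encodes LAT1, the widespread system L light chain of dividing cells (ENSMUSG00000040010.10, minus strand of chromosome 8 from 121881150 to 121907694), had 124 TPM and 91.5 TPM (mean 108 ± 23.2 TPM). Slc7a8 was thus above Slc7a5 in both libraries, and the ratio of Slc7a5 to Slc7a8 was 0.667 in replicate 2 and 0.521 in replicate 1, which on the log2 scale is -0.76 ± 0.25 (SD, n = 2).

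The other light chains were under 1 TPM. Slc7a6, which encodes a system y+L exchanger of cationic for neutral amino acids, had 0.79 TPM in replicate 2 and 0.74 TPM in replicate 1, from 199 and 148 counts. Its relative Slc7a7 had 0.28 and 0.27 TPM, from 39 and 30 counts. The ratio of Slc7a6 to Slc7a7 was 2.82 (95% counting interval 2.01 to 4.11) in replicate 2 and 2.74 (1.85 to 4.22) in replicate 1, so Slc7a6 was the higher in both libraries beyond counting error. Slc7a11, the cystine-glutamate exchanger of system xc-, had 0.03 and 0.04 TPM from 18 and 14 counts, and Slc7a10, which encodes the exchanger Asc-1 of small neutral amino acids, had 0 and 2 counts. Slc7a9, the cystine exchanger that pairs with Slc3a1, and Slc7a12, Slc7a13 and Slc7a15 had 0 counts in both libraries. The only partners of Slc3a2 above 1 TPM were therefore the 2 system L chains.

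Set against each other, the heavy chain was lower than the light chains it pairs with. Those 6 light chains, Slc7a5, Slc7a6, Slc7a7, Slc7a8, Slc7a10 and Slc7a11, summed to 312 TPM in replicate 2 and 268 TPM in replicate 1. The ratio of Slc3a2 to this sum was 0.506 in replicate 2 and 0.461 in replicate 1, which on the log2 scale is -1.05 ± 0.09 (SD, n = 2). Against Slc7a5 alone the heavy chain was the higher, with ratios of 1.27 and 1.35, a log2 ratio of 0.39 ± 0.07. These are ratios of RNA and say nothing of protein.

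**Figure D2:**
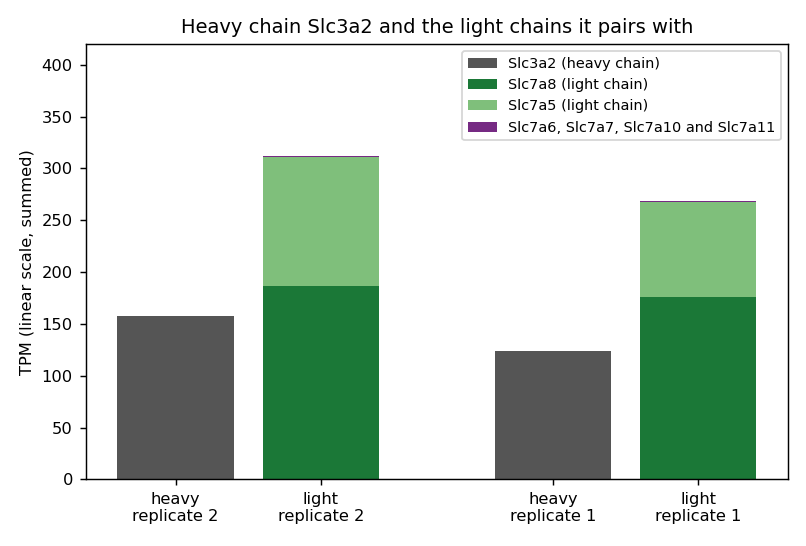
Summed TPM (linear axis from 0) of the heavy chain Slc3a2 and of the 6 light chains it pairs with, in replicate 2 (left) and replicate 1 (right). In each library the light chain bar, nearly all Slc7a8 and Slc7a5, is taller than the heavy chain bar, at 312 against 158 TPM in replicate 2 and 268 against 124 TPM in replicate 1.

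Promoters of 46 members, 13 of them detected, were in the RefSeq table of assembly GRCm38.p6, as 300 bases from 250 before to 50 after each start. The detected members Slc7a5, Slc43a3, Slc1a5 and Slc6a8 had no promoter among them and were not searched. Sites outside the 300 bases were not searched for any member. The 46 promoters were searched on both strands for 3 motifs, where a base could count for more than 1 of them. These were the C/EBP-ATF element TGATGNAA through which cells raise amino acid genes under amino acid shortage, the GATA site AGATAA and the E-box CACGTG. The C/EBP-ATF element was in 3 members (6.52%), against 3.97% of the 32851 promoters in the table. The GATA site was in 2 (4.35%), both among the 33 undetected members, against 11.2% of all promoters. The E-box was in 9 (19.6%), against 7.15%, with 2 of the 13 detected members (15.4%) and 7 of the 33 undetected ones (21.2%). The E-box holds a CG, and the members' promoters had a median of 15.5 CG dinucleotides against 7 over all promoters. Their median GC content was 58.2% against 52.7% over all promoters, and the GATA site is mostly A and T. The part of base composition in the E-box and GATA shares was not tested. Given here in gene direction, with the C/EBP-ATF element in capitals, are the promoters of the highest member, of the detected member that holds the element and of a member that holds it on both strands but was near 0.
Slc7a8 (chr14:54781837-54782136, minus strand): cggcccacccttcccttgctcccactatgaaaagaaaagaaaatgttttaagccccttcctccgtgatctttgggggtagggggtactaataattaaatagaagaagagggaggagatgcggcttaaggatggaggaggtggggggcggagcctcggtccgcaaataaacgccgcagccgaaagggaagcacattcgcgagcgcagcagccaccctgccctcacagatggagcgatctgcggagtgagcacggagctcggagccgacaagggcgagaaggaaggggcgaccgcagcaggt
Slc1a4 (chr11:20332664-20332963, minus strand): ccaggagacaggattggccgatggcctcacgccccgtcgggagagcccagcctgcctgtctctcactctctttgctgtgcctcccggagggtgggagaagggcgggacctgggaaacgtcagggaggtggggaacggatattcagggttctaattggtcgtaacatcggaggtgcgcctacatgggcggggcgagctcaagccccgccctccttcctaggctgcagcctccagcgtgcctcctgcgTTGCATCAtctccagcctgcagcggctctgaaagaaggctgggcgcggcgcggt
Slc7a11 (chr3:50443564-50443863, minus strand): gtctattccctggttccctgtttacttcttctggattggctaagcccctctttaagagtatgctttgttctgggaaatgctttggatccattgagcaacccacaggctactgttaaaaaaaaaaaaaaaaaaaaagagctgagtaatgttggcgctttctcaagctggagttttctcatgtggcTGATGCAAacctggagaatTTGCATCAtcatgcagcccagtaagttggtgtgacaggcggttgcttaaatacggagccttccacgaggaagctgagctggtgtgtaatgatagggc

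In Slc1a4 the element spanned the start, from base -4 to base 4 and on the opposite strand, counting the first transcribed base as 1 with no base 0. Slc7a11 held it from -66 to -59 and, on the opposite strand, from -47 to -40, while its RNA was at 0.03 and 0.04 TPM. The Slc7a8 window held none of the 3 motifs, which says only that these letters are not in it. The number of CG dinucleotides had a median of 20 in the 13 detected members, 10 in the 33 undetected ones and 7 over all promoters in the table. Promoters of other genes were not split by detection, so whether the difference is particular to the members was not tested. Of the 46 promoters, 39 lay within 300 bases of the start of the member's leading transcript.

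Among the carriers of cationic amino acids, 1 of 5 was detected. Slc7a1, which encodes CAT-1, the arginine and lysine carrier that is also the entry receptor of ecotropic mouse leukaemia viruses (ENSMUSG00000041313.10, minus strand of chromosome 5 from 148327410 to 148399904), had 44.3 TPM in replicate 2 and 41.3 TPM in replicate 1 (mean 42.8 ± 2.14 TPM, SD, n = 2). Slc7a2, its relative of liver and activated macrophages, had 3 and 0 counts. Slc7a1 was 7805-fold higher than Slc7a2 in replicate 2, with a counting interval of 2670 to 37851, and at least 3487-fold higher in replicate 1. Slc7a3 and Slc7a4 had 0 counts, and Slc7a14, a related gene, had 1 and 0.

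In the Slc1 family both neutral amino acid exchangers were detected and none of the 5 glutamate carriers was. Slc1a5, which encodes the glutamine exchanger ASCT2 (ENSMUSG00000001918.13, chromosome 7 from 16781340 to 16798274), had 14.9 TPM in replicate 2 and 13.8 TPM in replicate 1. Slc1a4, which encodes ASCT1, an exchanger of alanine, serine and cysteine, had 6.17 and 5.22 TPM. The ratio of Slc1a5 to Slc1a4 was 2.42 and 2.65, which on the log2 scale is 1.34 ± 0.09 (SD, n = 2), so the order was the same in both libraries. The glutamate carriers Slc1a1, Slc1a3, Slc1a6 and Slc1a7, best known from neurons, glia and retina, had 0 counts in both libraries, and Slc1a2 had 0 and 1.

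The Slc38 family, sodium-coupled carriers of glutamine and other neutral amino acids at the surface and on lysosomes, had 4 of 11 members detected. Slc38a10, a less studied member (ENSMUSG00000061306.11, minus strand of chromosome 11 from 120103960 to 120151346), was the highest of them with 93.1 TPM in replicate 2 and 91.1 TPM in replicate 1 (mean 92.1 ± 1.46 TPM). Slc38a2, the system A carrier SNAT2 that rises in many cells when amino acids run short, had 24.1 and 23.1 TPM. Its relatives were nearly silent: Slc38a1 had 2 and 3 counts, and Slc38a4, a liver carrier, had 0. Slc38a2 was 5888-fold higher than Slc38a1 in replicate 2 (counting interval 1630 to 48631) and 2978-fold higher in replicate 1 (1018 to 14443). RNA of system A was therefore detected from 1 gene, Slc38a2.

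System N, which carries glutamine, histidine and asparagine, had no detected member. Slc38a3 had 1 and 0 counts, and Slc38a5 had 4 and 9. On lysosomes, Slc38a7, the glutamine exporter SNAT7, had 14.9 TPM in replicate 2 and 14.1 TPM in replicate 1 when all its transcripts were added. Slc38a9, the lysosomal arginine sensor upstream of the growth kinase complex mTORC1, had 0.39 and 0.31 TPM from 239 and 152 counts, which is above the limit of a 0 but below the threshold. Slc38a6 had 2.74 TPM in each library, from 140 and 92 counts, and Slc38a8 and Slc38a11 had 0 counts.

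Of the Slc43 family, Slc43a2 and Slc43a3 were detected. Slc43a2, which encodes LAT4, a carrier of branched-chain amino acids and phenylalanine that needs no heavy chain, had 7.53 TPM in replicate 2 and 5.19 TPM in replicate 1. Slc43a1, which encodes its relative LAT3, had 1 and 4 counts, and the ratio of Slc43a1 to Slc43a2 was 0.000803 (counting interval 2.03e-05 to 0.00448) in replicate 2 and 0.00578 (0.00156 to 0.0147) in replicate 1. Slc43a3, at 15.5 and 13.3 TPM, shares the family name but is known to carry purine nucleobases.

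Among the 4 proton-coupled carriers of the Slc36 family, Slc36a1 was detected, a carrier of small amino acids such as glycine, alanine and proline in the lysosomal and surface membranes. It had 4.74 TPM in replicate 2 and 6.70 TPM in replicate 1. Slc36a2 and Slc36a3 had 0 counts, and Slc36a4 had 0 and 2.

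The Slc6 family, sodium- and chloride-coupled carriers that include the uptake carriers of neurotransmitters, was the largest with 21 members, of which 3 were detected and 11 had 0 counts in both libraries. Slc6a9, the glycine carrier GlyT1, which in mouse red cell precursors supplies glycine for haem, had 4.43 TPM in replicate 2 and 4.50 TPM in replicate 1. Slc6a5, the glycine carrier GlyT2 of inhibitory neurons, had 0 counts, so Slc6a9 was at least 482-fold higher in replicate 2 and at least 387-fold higher in replicate 1. Slc6a8, the creatine carrier, had 2.11 and 1.55 TPM, and Slc6a6, the taurine carrier, had 5 and 3 counts. None of the 10 further Slc6 genes that encode amino acid carriers or their relatives was detected, with 1 count in replicate 2 and 5 in replicate 1 over all of them.

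The remaining detected Slc6 member was Slc6a13, which carries GABA and taurine and is known from liver, kidney and the coverings of the brain. Slc6a13 (ENSMUSG00000030108.10, chromosome 6 from 121300227 to 121337733) had 13.8 TPM in replicate 2 and 7.85 TPM in replicate 1 (mean 10.8 ± 4.22 TPM, SD, n = 2), from 2039 and 916 counts. The other 3 GABA carriers and the 3 monoamine carriers were undetected, with at most 1 count per gene and library. Slc6a13 was the least reproducible of the detected members.

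Slc7a6os met the symbol rule but encodes no transporter. It is named for lying on the strand opposite Slc7a6, and it had 19.9 TPM in replicate 2 and 18.3 TPM in replicate 1. Without it, 16 of 63 members were detected and the sum was 719 TPM in replicate 2 and 623 TPM in replicate 1.

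Many transporter genes lie side by side, and in some pairs only 1 of the neighbours was detected. Next to each other with no more than 500 kb between them stood 14 pairs, which held 25 members. In 7 pairs exactly 1 gene was detected, in 7 none, and in 0 both. Since only 26.6% of all 64 members were detected, pairs with both detected would be few in any case. Whether the split departs from that share was not tested. Slc6a13 and Slc6a12, which encodes a betaine and GABA carrier, lie 5.34 kb apart on the same strand of chromosome 6, and Slc6a12 had 0 counts in both libraries against the 2039 and 916 of Slc6a13. Slc7a8 and Slc7a7 lie 304 kb apart on chromosome 14 on the same strand, at 186 and 176 TPM against 0.28 and 0.27 TPM in replicate 2 and replicate 1. On chromosome 15, Slc38a2 lies between Slc38a1, 44.5 kb away, and Slc38a4, 295 kb away, and was the only detected gene of the 3. Slc43a3 and Slc43a1 lie 73.0 kb apart on chromosome 2, Slc36a1 and Slc36a2 19.3 kb apart on chromosome 11, and Slc7a6os and Slc7a6 2.01 kb apart on chromosome 8.

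**Figure D3:**
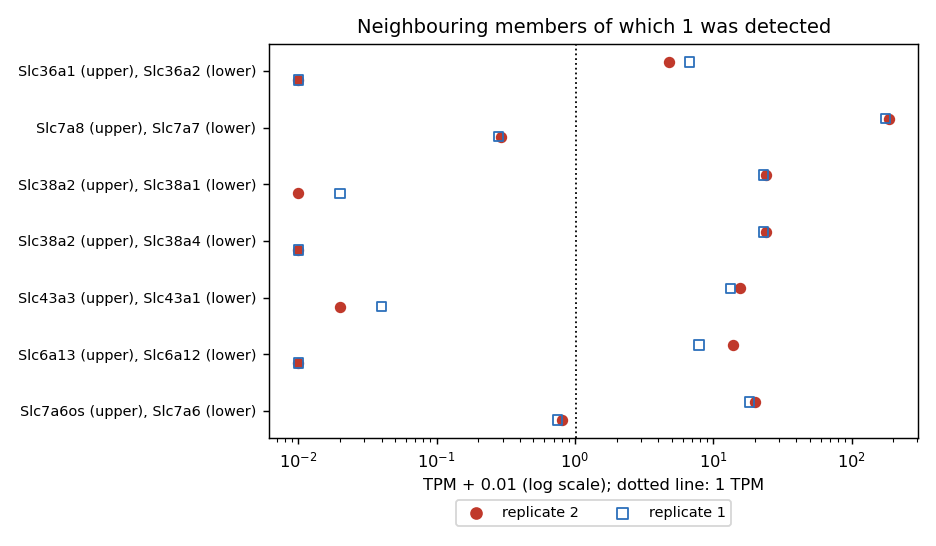
TPM + 0.01 (log axis) of the 7 pairs of neighbouring members of which 1 was detected, with the detected gene above its neighbour. Circles are replicate 2 and squares replicate 1. The pairs were chosen on detection, so by definition the detected gene lies right of the dotted line at 1 TPM. The 7 pairs with none detected are not shown. Among the neighbours drawn, 3, Slc36a2, Slc38a4 and Slc6a12, are at 0 TPM in both libraries.

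A gene's TPM adds up all its annotated transcripts, and for some members much of it went to transcripts that do not encode the whole protein. Slc7a8, Slc7a1, Slc38a2, Slc6a13 and Slc7a6os had 100% of their TPM on complete coding transcripts in both libraries, and Slc3a2 did too, with 95.1% and 93.2% on Slc3a2-201. For Slc7a5, Slc7a5-201 took 98.7% in replicate 2 and 99.9% in replicate 1. In the same order, Slc1a5-201 took 97.4% and 95.6% of the TPM of Slc1a5, and Slc43a2-202 took 81.1% and 77.55% of that of Slc43a2. Slc38a10 had 76.0% and 68.2% on complete coding transcripts, 70.8 and 62.1 TPM.

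Slc38a7 stood lowest in this respect, with 24.3% in replicate 2 and 18.7% in replicate 1. A 540-base transcript with a retained intron, Slc38a7-203, took 72.5% and 62.3% of its TPM, and the coding one was at 3.62 and 2.63 TPM. By counts, which are not divided by length, the coding transcript held 815 of 1135 in replicate 2 and 469 of 750 in replicate 1. For Slc43a3 the complete coding share was 33.3% and 35.8%, with most of the rest on coding transcripts annotated as incomplete. Its complete transcript Slc43a3-201 nevertheless held most counts, 892 of 1371 in replicate 2 and 648 of 969 in replicate 1. Slc36a1 split unlike in the libraries: the 460-base Slc36a1-205, annotated as non-coding, took 36.3% in replicate 2 and 60.6% in replicate 1, while the coding transcript Slc36a1-203 was at 2.93 and 2.64 TPM. So the coding TPM of Slc36a1 differed less between the libraries than its gene TPM, which was the higher in replicate 1. By counts, Slc36a1-203 held 1059 of 1100 in replicate 2 and 754 of 826 in replicate 1. In gene counts scaled by TMM, described below, the ratio of replicate 2 over replicate 1 was 0.942 (counting interval 0.860 to 1.03). By that measure the gene did not differ between the libraries beyond counting error.

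Among the lower members, Slc6a9 divided its TPM between coding transcripts with different starts, with 60.5% on Slc6a9-201 and 38.3% on Slc6a9-202 in replicate 2, against 73.1% and 25.6% in replicate 1. Slc38a6 put 71.4% and 67.6% on a 589-base coding transcript, Slc38a6-204, and 12.9% and 8.63% on the 3032-base Slc38a6-206, so the longer RNA was at 0.35 and 0.24 TPM. The split also differed between the libraries in Slc6a8 and Slc1a4. Slc6a8-201 took 48.0% in replicate 2 and 90.2% in replicate 1, and Slc1a4-202 took 100% and 74.05%. Counted by transcripts annotated as complete coding alone, 17 members reached 1 TPM in both libraries. Slc38a6 was among them only through the 589-base Slc38a6-204, at 1.95 and 1.85 TPM. Whether so short a transcript encodes the whole protein was not examined. The division of reads among transcripts is a model estimate and rests on annotation M4.

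**Figure D4:**
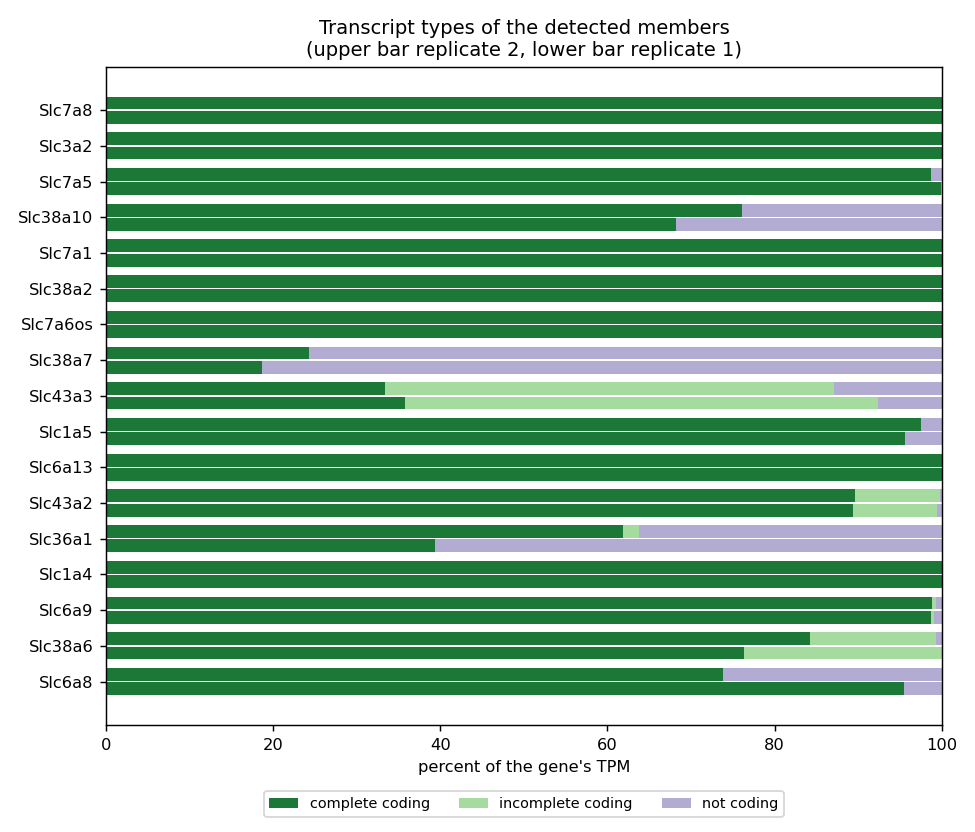
Percent of each detected member's TPM on complete coding, incomplete coding and non-coding transcripts, as stacked bars with replicate 2 above replicate 1 for each gene. Most genes are nearly all complete coding, while Slc38a7 (24.3% and 18.7%), Slc43a3 (33.3% and 35.8%) and Slc36a1 (61.8% and 39.4%) are the lowest.

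Genes that work with the transporters gave a mixed picture. Of 15 genes through which amino acids are sensed by mTORC1, 11 were detected, where 40.0% of all protein-coding genes were. All 5 Ragulator genes, which anchor the complex on lysosomes, were among them, with Lamtor2 at 184 TPM in replicate 2 and 94.2 TPM in replicate 1, and Lamtor1 at 136 and 149 TPM. Of the Rag GTPases, Rraga had 49.1 and 56.5 TPM and Rragc 24.4 and 33.6 TPM, while Rragb had 0 counts and Rragd 0.50 and 0.60 TPM. Sesn2, a leucine sensor, had 41.4 and 37.8 TPM, and Sesn3 was at 0.01 TPM in each library. Castor1, an arginine sensor, had 4.52 and 2.83 TPM, and its relative Castor2 had 0 counts. Of the listed arginine sensors, Slc38a9 and Castor1, Castor1 alone was detected.

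Of 13 other carriers and carrier partners, 5 were detected, which is close to the 40.0% of all protein-coding genes. Slc15a4, the lysosomal histidine and peptide carrier, was the highest with 9.83 TPM in replicate 2 and 11.0 TPM in replicate 1. The lysosomal exporter of cationic amino acids Slc66a1 had 4.42 and 3.77 TPM and the lysosomal cystine exporter Ctns 3.68 and 1.85 TPM. Slc16a10, the aromatic amino acid carrier TAT1, had 3.02 and 3.18 TPM, and Slc15a2, a peptide carrier, 1.67 and 1.15 TPM. The vesicular glutamate and GABA carriers were undetected, as was Cltrn, a partner of the Slc6a19 carrier. Of the 3 genes that lead glycine into haem, Slc25a38, the mitochondrial glycine carrier, had 39.5 and 50.8 TPM, Alas1 had 7.28 and 8.91 TPM, and Alas2, the red cell form of the enzyme that joins glycine to succinyl-CoA, had 0.58 and 0.29 TPM.

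The libraries were compared on counts scaled by TMM, which takes most genes as unchanged, for the 21 members that reached 10 counts in either library. None was 2-fold or more higher in replicate 2 (0 of 21, exact 95% interval up to 16.1%), against 4.83% of all 11636 such genes, and none was 2-fold or more lower, against 2.33%. The log2 ratio of replicate 2 over replicate 1 ran from -0.20 for Slc6a9 to 0.66 for Slc6a13, with 10 members above 0 and 11 below. By library totals, under which the median of all genes was 0.13 in place of 0.01, 18 were above 0 and 3 below. The median size of the log2 ratio was 0.10 over the members and 0.28 over all genes. Where each library held 500 or more counts, it was 0.09 over 15 members and 0.22 over 6974 genes. The members' median was the smaller in both cases, which is a description with no test.

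Slc6a13 was 1.57-fold higher in replicate 2 (counting interval 1.46 to 1.70) and the only member past 1.5-fold. Its difference exceeded counting error, as did those of 7 other members, 3 of them higher and 4 lower in replicate 2. Slc43a2 followed at 1.26-fold (1.16 to 1.36), then Slc7a5 at 1.20-fold (1.18 to 1.23) and Slc3a2 at 1.14-fold (1.12 to 1.16). Slc7a8, by contrast, was at 0.950 (0.937 to 0.962). Slc6a13, Slc43a2, Slc7a5 and Slc3a2 were the higher in replicate 2 under each of the 3 scalings tried. The direction of Slc7a8 turned round by library totals, with a log2 ratio of 0.04 against -0.07 by TMM, as did those of Slc7a1 (0.06 against -0.06) and Slc38a2 (0.02 against -0.10). Base composition moved with detection, since the leading transcript had a median GC content of 55.6% in detected and 50.1% in undetected members, against 52.4% and 48.3% in protein-coding genes, and its part in the levels was not tested.

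**Figure D5:**
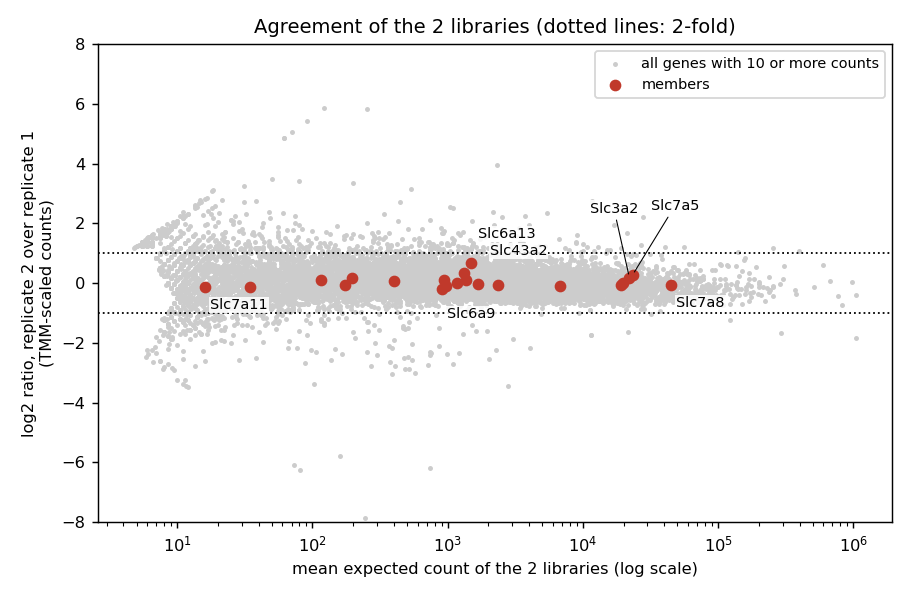
Log2 ratio of replicate 2 over replicate 1 in TMM-scaled counts, against the mean count of the 2 libraries (log axis), for the 11636 genes that reached 10 counts in either library (grey) and the 21 members among them (red). Dotted lines mark 2-fold. The members lie between -0.20 and 0.66, and Slc6a13 is the highest of them.

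Of the 17 detected members, 3 share exonic bases with another annotated gene, each on the opposite strand. Slc38a10 shares 367 bases with Gm11769, which was at 0.22 TPM in replicate 2 and 0.35 TPM in replicate 1. Slc6a9 shares 1429 bases with Ccdc24, at 0 and 0.03 TPM, and shorter stretches with B4galt2 and Gm17114. Slc43a2 shares 922 bases with Gm45606, which had no entry among the quantified genes. All 128 counts of the members were whole within 0.005, so their gene counts show no reads divided with other quantified genes. Whole counts cannot show whether reads of Gm45606 were counted for Slc43a2.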

How the data were processed

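RNA was measured in 2 libraries of 1 group, and per the deposited descriptions the authors made a gene and a transcript table from a transcriptome alignment of each library on mm10 with annotation M4. Neither the aligner nor the counter is given in the sources used here. The deposited values are expected counts (model estimates that need not be whole), TPM and FPKM (abundance and fragments scaled by effective length and library total, per the file headers), and the percent of a gene's TPM that the authors gave to each transcript. Of 43346 gene entries, 42462 matched GENCODE M21, which gave symbols, types and positions, and 3 antisense genes with matching symbols were left out by type.

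Levels are the TPM as deposited, averaged over the libraries with an SD, and with 1 group no test was made. Expected counts were rounded to whole numbers and scaled by TMM (edgeR 4.0.16, R 4.3.3, factors 1.04 in replicate 2 and 0.960 in replicate 1) for genes that reached 10 counts in either library. Counting intervals are exact 95% Clopper-Pearson intervals, and a count of 0 was taken to allow 3 counts. Both cover counting error alone, because reads without molecular identifiers cannot be taken as independent molecules. Where a gene had few counts, ratios used counts over effective length. The remaining steps ran in Python 3.11.15 with SciPy 1.17.1, NumPy 2.4.6 and pandas 2.3.3, figures were drawn with matplotlib 3.10.9, and the ratio step was checked on simulated data. Transcript types are those of M21, and promoters are RefSeq sequences of GRCm38.p6.

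Given in full are the 12 members of highest mean TPM, heavy and light chains, detected members and any 2-fold apart, and transcripts are described for the first 12. The transcripts of Slc36a1, Slc6a9, Slc38a6, Slc6a8 and Slc1a4 and the gene overlaps were chosen after their values were seen. The members, gene lists and motifs were chosen with earlier results of these data known. Protein sequences were not used here, and some listed genes are counted but not reported by name.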

Additional observations from a re-analysis of the deposited data

How the results depend on the processing

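Levels and ratios rested on deep counts for the leading members and on few counts for the silent ones. The count of 17 detected members was 18 at a threshold of 0.5 TPM, 13 at 5 TPM and 16 without Slc7a6os. By posterior mean TPM it was 18 (with Slc1a2, which had 0 and 1 counts). It was 17 by FPKM and in each library alone. By transcripts annotated as complete coding it was also 17, with Slc38a6 passing only through a 589-base transcript. That last setting was chosen after seeing the data. The median log2 value of members, 0.00359, depended on the scale, at 0.167 by posterior mean TPM, -3.29 with a pseudocount of 0.1 and 3.52 when restricted to members with 10 or more counts. The 0 members 2-fold apart became 1 with no count minimum (Slc38a5, 4 against 9 counts) and 1 at 1.5-fold (Slc6a13). It stayed at 0 with deposited TPM, median-of-ratios factors from DESeq2, library totals, 50 or more counts and posterior mean counts. The log2 ratio of Slc7a6 over Slc7a7 was 1.53 by counts over annotated length, against 1.48. With library totals in place of TMM the median log2 ratio of all genes was 0.13 and that of Slc6a13 0.77, against 0.01 and 0.66. By posterior mean TPM, the levels of the 20 members tried moved by -1.43% to 16.4%. No paired analysis was possible because the libraries form 1 group. For members with 0 counts in a library, the 3 counts that a 0 allows came to at most 0.0539 TPM in replicate 2 and 0.0537 TPM in replicate 1, but the deposited posterior means of such members can be higher, as for Slc1a2 with 1.09 TPM in replicate 2.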
